A study of Mus musculus with 14 samples.

Results

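Genes of the matrix metalloproteases (MMPs), the ADAMTS proteases, the ADAMTS-like proteins and the tissue inhibitors of metalloproteases (TIMPs) were followed in sorted cochlear supporting cells (SCs). Members were chosen by symbol, and 51 of the 35976 genes in the count tables matched. Of these, 37 had at least 10 counts in at least 3 of the 14 libraries and are described here, namely 17 of 19 ADAMTS genes, 5 of 5 ADAMTS-like genes, 12 of 23 MMP genes and 3 of 4 TIMP genes. The cells came from cochlear explants of Lfng-EGFP transgenic mice (B6;FVB-Tg(Lfng-EGFP)HM340Gsat/Mmucd, kept on C57BL/6), whose EGFP is under Lfng control. Explants taken at P0 or P6 were cultured for 24 hours with 2 μM compound E, which blocks γ-secretase and so the cleavage that activates Notch, or with the same volume of DMSO. The transgene, the culture and the solvent were common to all groups. EGFP+ cells were sorted from pooled organs and their RNA was amplified as cDNA without molecular identifiers. There were 4 compound E and 4 DMSO libraries at P0 and 3 of each at P6, and the growth protocol gives the younger age as P0 to P1. Beyond a batch, the labels do not say which libraries came from separate animals, so p-values measure only the spread between these libraries. Lfng, which encodes an enzyme that modifies Notch receptors, was lower with compound E in 4 of 4 pairs at P0 and in 3 of 3 pairs at P6, and the sort rests on a gene of the pathway that was blocked.

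ADAMTS and MMP proteins are zinc-dependent proteases that are secreted or held at the cell surface, where they cut collagens, proteoglycans and glycoproteins of the extracellular matrix. TIMPs bind and block their active sites, and TIMP3, which stays bound to the matrix, also blocks several ADAMTS and ADAM proteases. SCs border the matrix of the basilar membrane and help to make that of the tectorial membrane, both of which are still maturing after birth.

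Each library held 19415066 to 44430063 counts over genes. Levels are given as RPM, a gene's share of the library's counts over genes scaled to 1000000, and levels of different genes are compared only as RPM per kb of exon. The 12 SC markers summed to 5507 to 14859 RPM in the 14 libraries, and none was at 0 throughout. Several marker sums differed between treatments at P0. The SC sum was 8129.8 to 8872 RPM with it and 9258 to 14859 RPM without it, from a list that holds the Notch target Hey2 and Lfng itself. The sums were 1312 to 2337 against 674 to 1540.4 RPM for 10 hair cell markers and 1236 to 1388 against 959.9 to 1203 RPM for 10 mesenchyme markers. They were 258 to 266 against 185 to 231 RPM for 6 glial markers and 1769 to 1994 against 1347 to 1689 RPM for 6 neuronal markers. All of these sums but that of the hair cells were without overlap. Single genes made up much of some sums. Lum had means of 1050.5 against 754 RPM, and each of the other 9 mesenchyme markers had a lower mean with compound E than with DMSO. Gata3, which SCs and hair cells also express, had means of 1779 against 1513 RPM in the neuronal list. Their part in the results at P0 was not tested. In bulk libraries, fewer cells of a type and less RNA per cell cannot be told apart.

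Promoters are shown for Adamts3, Timp3 and Adamts18, which were among the genes with an adjusted p of at most 0.05 for compound E at P0, so that the letters just upstream of genes with fold changes of opposite sign can be compared. Sequences and coordinates are from RefSeq on GRCm38.p6, which held a start for 23 of the 37 genes, in 24 windows. Each line gives the 250 bases before that start, 5′ to 3′ on the strand of the gene. Gene spans given further on are those of GENCODE on GRCm38, whose starts can differ from RefSeq's, as they do for Timp3 and Adamts18. Capitals mark the E-box CAGNTG, which many basic helix-loop-helix factors bind.
Adamts3 (chr5:89883335-89883584, minus strand): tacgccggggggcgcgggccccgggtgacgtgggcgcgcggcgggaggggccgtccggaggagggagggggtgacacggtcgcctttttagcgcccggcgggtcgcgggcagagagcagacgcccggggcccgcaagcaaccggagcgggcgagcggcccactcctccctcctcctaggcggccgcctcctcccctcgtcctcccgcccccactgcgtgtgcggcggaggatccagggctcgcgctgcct
Timp3 (chr10:86300162-86300411, plus strand): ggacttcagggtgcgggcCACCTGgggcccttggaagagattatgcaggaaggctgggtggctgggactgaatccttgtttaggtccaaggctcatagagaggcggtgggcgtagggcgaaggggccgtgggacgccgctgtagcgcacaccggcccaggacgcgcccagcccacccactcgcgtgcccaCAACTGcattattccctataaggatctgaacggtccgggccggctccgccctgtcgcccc
Adamts18 (chr8:113848840-113849089, minus strand): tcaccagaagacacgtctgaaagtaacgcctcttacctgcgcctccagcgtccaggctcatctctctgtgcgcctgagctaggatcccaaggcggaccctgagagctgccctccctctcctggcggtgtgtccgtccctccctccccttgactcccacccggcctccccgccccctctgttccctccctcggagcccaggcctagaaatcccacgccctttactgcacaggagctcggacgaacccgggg
The Timp3 window held 2 E-boxes and the others held none, on either strand. E-boxes were found in 12 of the 24 member windows and in 44.8% of all 32851 windows of this length. The RBPJ core TGGGAA, read by the DNA-binding partner of Notch, was in none of the 3 windows on either strand, in 7 of the 24 member windows and in 21.6% of all windows. G and C made up 78% of the Adamts3 window, 65.6% of the Timp3 window and 65.2% of the Adamts18 window, with a median of 64% over the member windows and 52.4% over all windows.

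In the P0 DMSO libraries, group means ran from 0.0235 RPM per kb for Adamtsl3 to 117 RPM per kb for Timp2. Timp2, whose protein inhibits MMPs and also helps MMP14 to activate the MMP2 precursor, led in each of the 4 groups, with 117 ± 12.5 RPM per kb (SD, n = 4) at P0 and 151 ± 14 RPM per kb (SD, n = 3) at P6 under DMSO. Mmp14, the membrane-bound protease of that pair, came next in each group, with 88.3 ± 3.29 RPM per kb and 79.7 ± 16.7 RPM per kb in the same groups. Mmp15, another membrane-type MMP, had 22.1 ± 7.24 RPM per kb under DMSO at P0. Adamts2, which removes the N-propeptides of procollagens, had 20.3 ± 3.90 RPM per kb there and Timp3 had 19.8 ± 3.34 RPM per kb. The order of these last 3 genes lay within the spread between libraries.

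**Figure D1:**
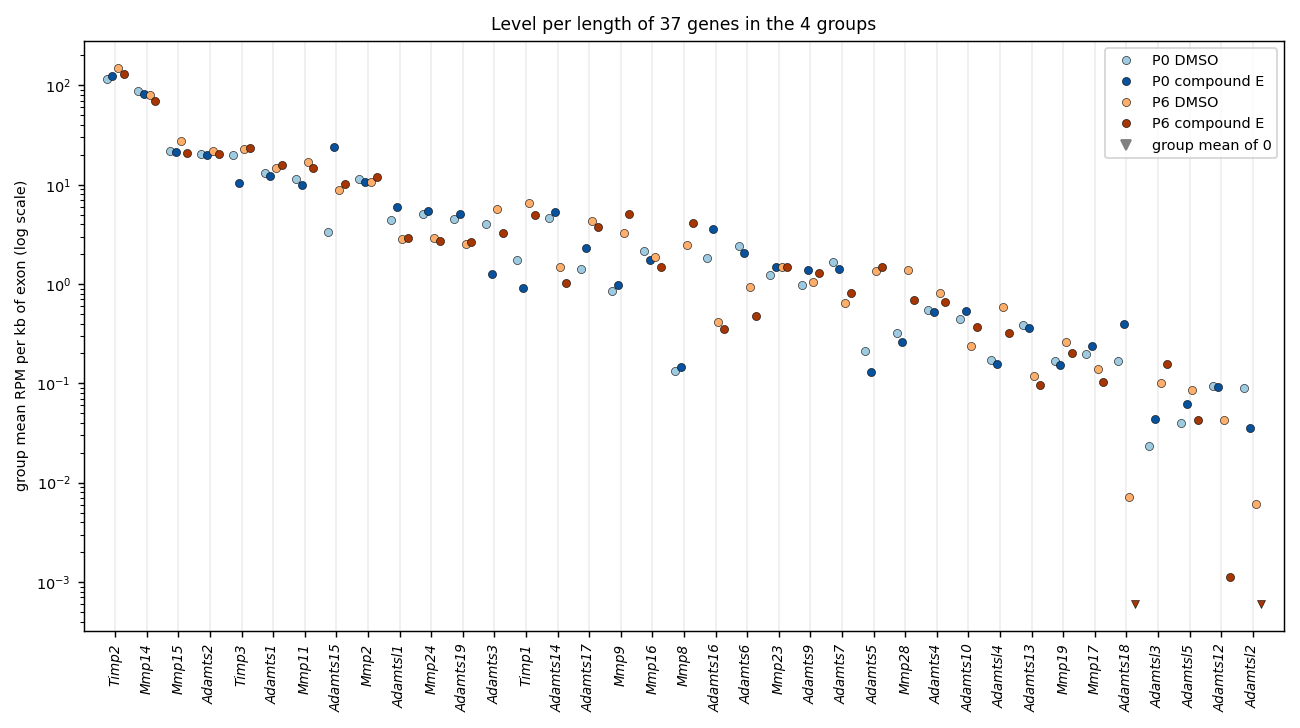
Group mean level of each of the 37 genes as RPM per kb of exon (log axis), with 1 point for each age and treatment and a triangle for a group mean of 0. Timp2 and Mmp14 lead in all 4 groups, and Adamts15 moves from rank 14 under DMSO to rank 3 under compound E at P0.

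Summed over the 17 ADAMTS genes, the level at P0 was 76.1 to 84.9 RPM per kb in the compound E libraries and 57.3 to 62.3 RPM per kb in the DMSO libraries. These ranges did not overlap, and Adamts15 alone had means of 24 and 3.36 RPM per kb. The 12 MMP genes summed to 123 to 146 and 135 to 160.1 RPM per kb and the 3 TIMP genes to 127 to 140.2 and 124 to 149 RPM per kb, with ranges that overlapped.

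To ask which members moved with Notch inhibition at P0, compound E and DMSO libraries were compared by edgeR's quasi-likelihood test across 15937 genes. A gene was called where its adjusted p (Benjamini-Hochberg) was 0.01 or lower and the change was 2-fold or more, the thresholds of the study. Adamts15 rose and Adamts3 fell, and these were the 2 calls among the 34 members tested. Of all genes tested, 1.22% were called, 0.238% higher and 0.985% lower. The median log2 fold change was -0.11 over the members and 0.01 over all genes. Adamts16, Timp3 and Adamts18 had an adjusted p of 0.05 or lower and missed a threshold, which made 5 members at that level, where 3.87% of all genes were.

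Adamts15 (chr9:30899155-30922452, minus strand) encodes a protease of the group that cuts aggrecan and versican. It was at 191, 262, 324 and 217 RPM in the compound E libraries of replicates 1 to 4 at P0, and at 14.6, 44.5, 60.3 and 19.8 RPM in the DMSO libraries of the same numbers. Every compound E library lay above every DMSO library, and replicate 3 was the highest in both groups. The log2 fold change was 2.78 (SE 0.44, adjusted p = 0.00758), and the log2 ratios within the pairs were 3.71, 2.56, 2.42 and 3.45. Adamts8, another gene of this group that starts 20.1 kb from its start on the other strand, had at most 9 counts in any library and was not used.

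Adamts3 (chr5:89677087-89883334, minus strand) encodes a procollagen N-propeptidase that also takes part in the activation of VEGF-C. At P0 it was at 6.33, 8.81, 7.14 and 4.83 RPM in the compound E libraries and at 16.8, 28.1, 17.9 and 24.4 RPM in the DMSO libraries. The groups did not overlap, and compound E was lower in 4 of 4 pairs, with a log2 fold change of -1.73 (SE 0.25, adjusted p = 0.00473). The other 2 procollagen N-propeptidase genes were not called. Adamts2 was at 271, 179.6, 164 and 135 RPM against 236, 202, 168 and 154 RPM, with overlapping groups and a log2 fold change of -0.06 (SE 0.19, adjusted p = 0.945). Adamts14 was at 30.7, 24.1, 31.8 and 24.1 RPM against 25.3, 21.4, 26.2 and 23.1 RPM. It was higher in 4 of 4 pairs while its groups overlapped, with a log2 fold change of 0.17 (SE 0.13, adjusted p = 0.699).

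Both calls at P0 were lost when some single libraries were left out. Adamts15 was no longer called when any 1 of the 4 compound E libraries, DMSO replicate 2 or DMSO replicate 4 was left out. Adamts3 was no longer called without compound E replicate 1, 3 or 4 or without DMSO replicate 2 or 4. Over all alternatives the log2 fold change lay between 2.51 and 3.19 for Adamts15 (adjusted p up to 0.0746) and between -1.90 and -1.55 for Adamts3 (adjusted p up to 0.0695). The fits with libraries left out had no block. With all P0 libraries and the replicate pairs as a block in edgeR, the adjusted p was 0.000246 for Adamts15 and 0.00129 for Adamts3.

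Timp3 (chr10:86300372-86349506, plus strand) was lower with compound E in 4 of 4 pairs at P0. It was at 57.5, 81.7, 90.5 and 108 RPM in the compound E libraries and at 153, 128, 173 and 191 RPM in the DMSO libraries, without overlap. Its log2 fold change was -0.96 (SE 0.21, adjusted p = 0.0337). With the replicate pairs as a block in edgeR, the Timp3 value was -0.99 (SE 0.13, adjusted p = 0.0031), just under 2-fold. Over all alternatives this value lay between -1.11 and -0.80 (adjusted p up to 0.185). Timp1, a soluble inhibitor, was also lower in 4 of 4 pairs, at 0.833, 0.979, 0.787 and 0.663 RPM against 1.67, 1.15, 1.56 and 1.77 RPM. Its groups did not overlap, and its log2 fold change of -0.95 (SE 0.31, adjusted p = 0.162) did not pass. Timp2 was at 508, 503, 486 and 439.6 RPM against 478, 468, 491 and 384 RPM. Its groups overlapped, with a log2 fold change of 0.05 (SE 0.12, adjusted p = 0.929). Timp1 and Timp3 overlap the synapsin genes Syn1 and Syn3 on the opposite strand. Overlaps were read from whole gene spans, introns included, and overlap of exons was not examined. Whether the counting used strand is not given in the sources used here, so how far such overlaps enter the counts was not tested. Adamts2, Adamts3, Adamts4, Adamts7, Adamts9, Adamts16, Adamts17, Adamtsl1, Mmp11, Mmp16, Mmp19, Mmp24 and Mmp28 also overlap genes on the opposite strand, and Timp2, Adamts17 and Adamtsl1 overlap genes on their own strand.

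Adamts16 and Adamts18 encode related proteases whose substrates are less well known, and both were higher with compound E in 4 of 4 pairs at P0. Adamts16 was at 25.5, 25, 22 and 26.1 RPM in the compound E libraries and at 11, 12.1, 11.5 and 15.1 RPM in the DMSO libraries. Its log2 fold change of 0.95 (SE 0.15, adjusted p = 0.00694) passed the test and was just under 2-fold. Adamts18 was at 4.64, 4.17, 3.38 and 3.85 RPM against 1.32, 2.20, 1.75 and 1.61 RPM. Its log2 fold change of 1.16 (SE 0.26, adjusted p = 0.0376) passed the fold threshold and not that on the adjusted p. With the replicate pairs as a block in edgeR, the adjusted p was 0.0030 for Adamts16 and 0.0286 for Adamts18, and neither was called. The groups overlapped for neither gene. DESeq2 called Adamts18 with an adjusted p of 0.000258, beside Adamts15 and Adamts3, where it called 1.72% of all genes. Over all alternatives the log2 fold change of Adamts16 lay between 0.87 and 1.06 (adjusted p up to 0.284). That of Adamts18 lay between 0.99 and 1.32 (adjusted p up to 0.789).

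**Figure D2:**
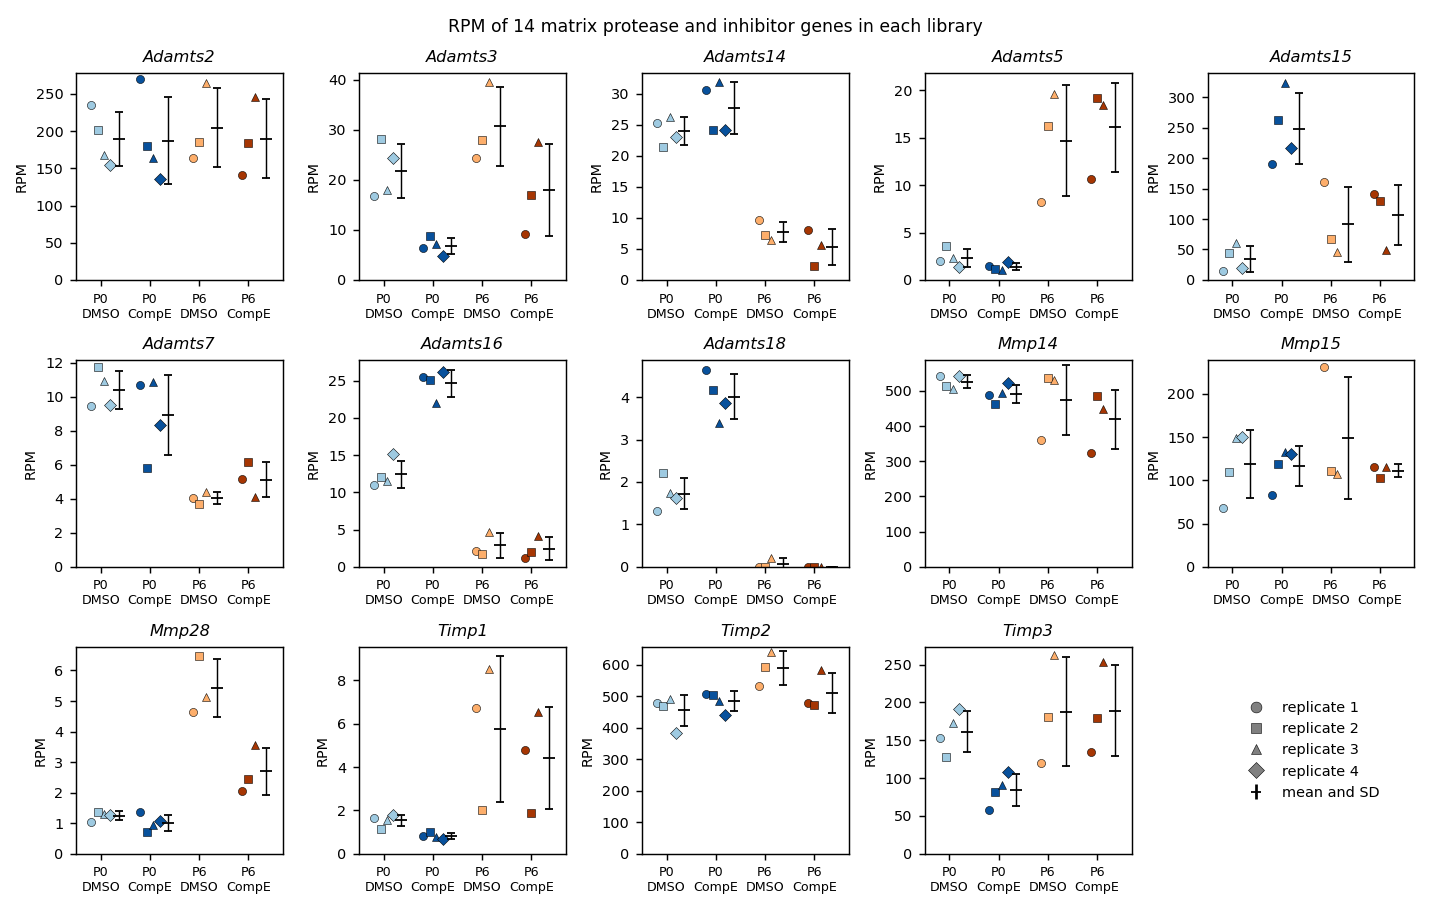
RPM of the 14 named genes, with 1 point for each library, and the mean with SD of each group. At P0, compound E and DMSO libraries do not overlap for Adamts15, Adamts16 and Adamts18 (higher) and for Adamts3, Timp1 and Timp3 (lower).

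Groups did not overlap for 7 of the 34 members at P0, the 6 named above and Adamts17, where 9.88% of all genes did not. Adamts17, linked to fibrillin microfibrils, was at 16.3 to 21 RPM against 4.16 to 14.1 RPM, with a log2 fold change of 0.65 (SE 0.34, adjusted p = 0.48). In the pairs, 7 members were higher with compound E in 4 of 4 and 5 were lower in 4 of 4, where 17.5% and 11.7% of all genes were. The 7 were Adamts9, Adamts14, Adamts15, Adamts16, Adamts17, Adamts18 and Adamtsl1, and the 5 were Adamts3, Adamtsl2, Mmp14, Timp1 and Timp3.

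No MMP gene was called at P0, and the log2 fold changes of the 11 tested lay between -0.38 for Mmp16 and 0.25 for Mmp23. Mmp14 was at 488, 462, 493 and 523 RPM in the compound E libraries and at 543, 514, 505 and 543 RPM in the DMSO libraries. Its groups overlapped, with a log2 fold change of -0.14 (SE 0.10, adjusted p = 0.652). Mmp15 was at 83, 119, 133 and 131 RPM against 67.9, 109, 149 and 149.9 RPM. Replicate 1 was the lowest in both groups, and the log2 fold change was -0.08 (SE 0.27, adjusted p = 0.955).

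**Figure D3:**
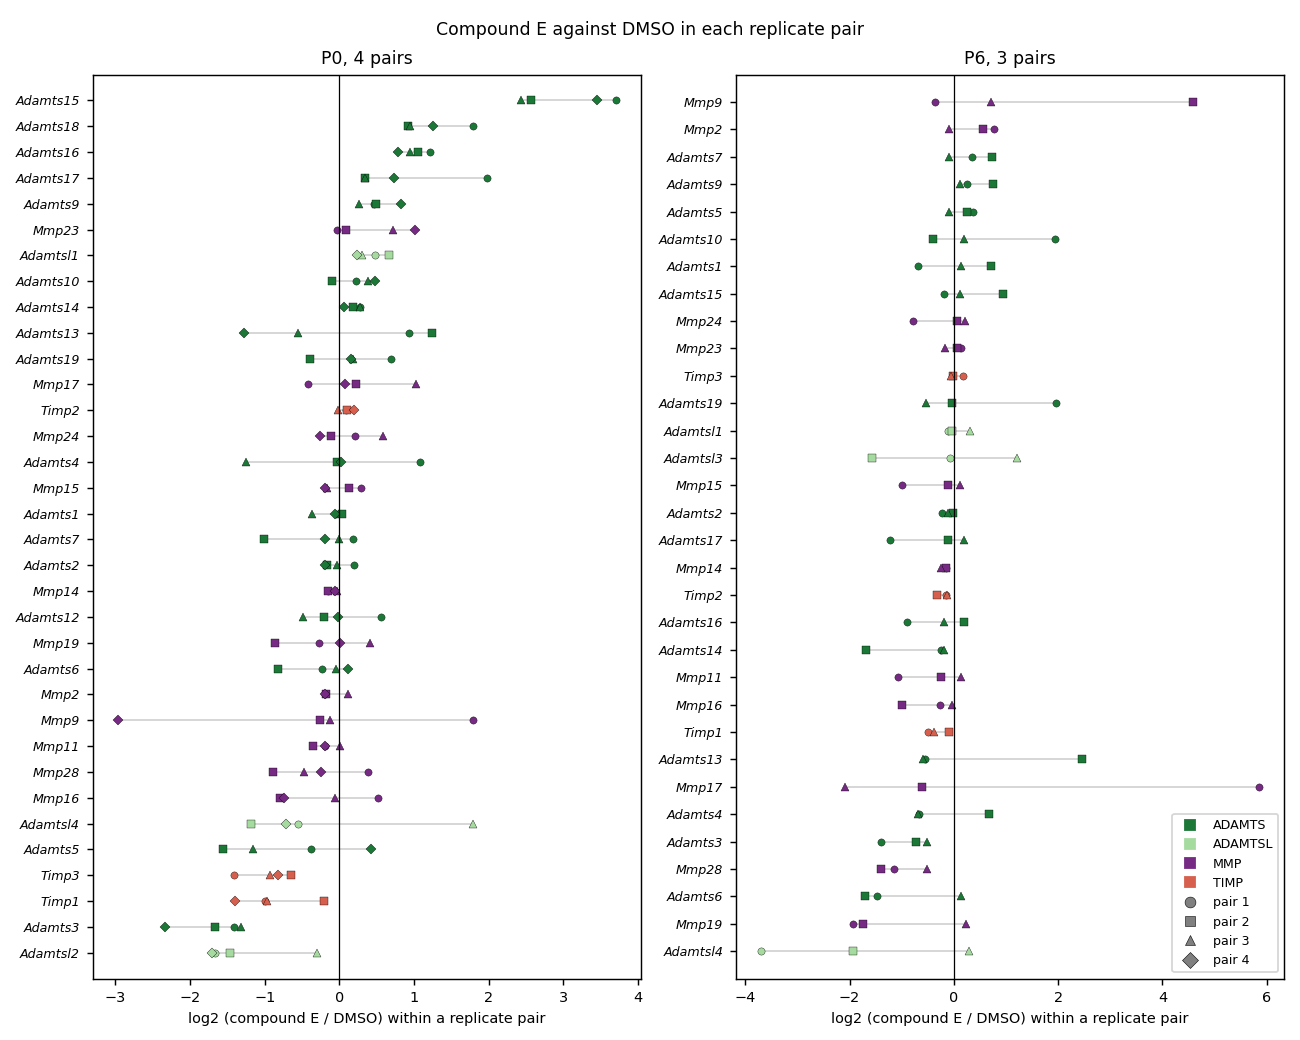
Log2 ratio of compound E to DMSO within each replicate pair for the members tested at P0 (4 pairs) and P6 (3 pairs), with a shape for each pair and a colour for each family. At P0 the 4 pairs of Adamts15 lie between 2.42 and 3.71, and at P6 its 3 pairs lie between -0.19 and 0.94.

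At P6 none of the 32 members tested was called by edgeR or DESeq2, and 1 had an unadjusted p under 0.05 by edgeR. DESeq2 called 0.0548% of the 23743 genes it tested. Of the 15322 genes tested by edgeR, 0% were called and 1.89% had such an unadjusted p. The median log2 fold change was -0.17 over the members. The 1 gene was Mmp28, which encodes epilysin, a secreted MMP of epithelia. It was at 2.07, 2.44 and 3.57 RPM in the compound E libraries of replicates 1 to 3 and at 4.63, 6.48 and 5.14 RPM in the DMSO libraries. The groups did not overlap, which held for no other member and for 7.19% of all genes. Its log2 fold change was -1.01 (SE 0.41, unadjusted p = 0.0426, adjusted p = 0.99981 by edgeR).

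Adamts15, Adamts3 and Timp3 each had overlapping groups at P6. Adamts15 was at 141, 129 and 49.8 RPM in the compound E libraries and at 160.5, 67.2 and 45.8 RPM in the DMSO libraries. Replicate 3 was the lowest in both groups, the pairs differed in direction, and the log2 fold change was 0.25 (SE 0.55). Adamts3 was at 9.23, 16.9 and 27.6 RPM against 24.4, 28 and 39.5 RPM. It was lower in 3 of 3 pairs, with a log2 fold change of -0.76 (SE 0.39). Timp3 was at 135, 179 and 254 RPM against 119.9, 181 and 263 RPM. Replicate 3 was the highest in both groups and the pairs lay close together, with a log2 fold change of 0.02 (SE 0.32).

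The most abundant members also overlapped at P6. Timp2 was at 477, 472 and 584 RPM in the compound E libraries and at 533, 592 and 642 RPM in the DMSO libraries. Mmp14 was at 324, 484 and 448 RPM against 360.1, 535 and 530.1 RPM. Both were lower with compound E in 3 of 3 pairs. Mmp15 was at 116, 103 and 116 RPM against 231, 110.5 and 107 RPM, and DMSO replicate 1 stood well above the rest. Adamts2 was at 141, 184 and 246 RPM against 165, 185 and 264 RPM. In all, 1 member, Adamts9, was higher in 3 of 3 pairs and 8 were lower, where 15.8% and 17.4% of all genes were.

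Whether the response differed between the ages was tested over all 14 libraries as the response at P6 minus that at P0. None of the 37 members was called by edgeR or DESeq2, where 0% and 0.123% of all genes were. An unadjusted p under 0.05 was found by edgeR for 5 members, Adamts12, Adamts15, Adamts16, Adamts18 and Timp3, where 4.75% of all genes had one. On the log2 scale the difference was -2.51 (SE 0.76, adjusted p = 0.632) for Adamts15 and 1.00 (SE 0.39, adjusted p = 0.923) for Timp3. With the replicate pairs as a block it was -2.67 (SE 0.38, adjusted p = 0.0230) and 1.05 (SE 0.18, adjusted p = 0.0418). Both passed 0.05 there, as 0.492% of all genes did, and neither passed 0.01.

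P6 was compared with P0 within the DMSO libraries and within the compound E libraries, in the fit over all 14. No batch held both ages, so age and batch cannot be told apart. Under DMSO, 7 of the 37 members were called, 3 higher and 4 lower at P6, where 7.12% of all genes were called, 3.74% higher and 3.38% lower. Under compound E, 8 members were called, 5 higher and 3 lower, where 6.43% were, 3.54% higher and 2.89% lower. Adamts5, Mmp28 and Timp1 were called higher and Adamts14, Adamts16 and Adamts18 lower under both treatments. Groups did not overlap between ages for 13 members under DMSO and 15 under compound E, where 31.1% and 38.2% of all genes did not. The median log2 fold change over the members was 0.21 under DMSO (0.29 without the 2 genes at 0 in the P6 compound E group) and 0.06 under compound E (0.16 without them), and that over all genes was -0.05 and -0.03.

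Adamts5 (chr16:85856173-85901828, minus strand) encodes a main aggrecan-cleaving protease of cartilage. Under DMSO it was at 1.97, 3.56, 2.29 and 1.38 RPM at P0 and at 8.22, 16.2 and 19.6 RPM at P6. Every P6 library lay above every P0 library, with a log2 fold change of 2.73 (SE 0.38, adjusted p = 0.000288). Under compound E it was at 1.51, 1.19, 1.02 and 1.86 RPM at P0 and at 10.7, 19.2 and 18.4 RPM at P6. These groups did not overlap either, with a log2 fold change of 3.67 (SE 0.40, adjusted p = 4.38e-05). Adamts1, a protease of the same group that lies 53.1 kb away, had means of 70.2 and 78.1 RPM under DMSO and was not called.

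Mmp28 (chr11:83440768-83463071, minus strand) was at 1.02, 1.38, 1.30 and 1.28 RPM under DMSO and at 1.35, 0.721, 0.933 and 1.07 RPM under compound E at P0. All 6 P6 libraries, given above, were higher than these 8. The log2 fold change was 2.19 (SE 0.34, adjusted p = 0.000652) under DMSO and 1.53 (SE 0.34, adjusted p = 0.00664) under compound E. Timp1 (chrX:20870166-20874735, plus strand) was at 6.72, 2.02 and 8.54 RPM under DMSO and at 4.77, 1.88 and 6.56 RPM under compound E at P6. Replicate 2 was the lowest in both groups, and each P6 library still lay above each P0 library of its treatment. The log2 fold changes were 1.96 (SE 0.47, adjusted p = 0.00902) and 2.54 (SE 0.48, adjusted p = 0.0023).

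The members called lower at P6 were all ADAMTS genes. Adamts14 (chr10:61197112-61273438, minus strand) was at 9.59, 7.20 and 6.38 RPM under DMSO and at 8.07, 2.23 and 5.61 RPM under compound E at P6, all below its P0 values. The log2 fold changes were -1.56 (SE 0.31, adjusted p = 0.00289) and -2.26 (SE 0.32, adjusted p = 0.000316). Adamts16 (chr13:70727802-70841811, minus strand) was at 2.17, 1.69 and 4.73 RPM under DMSO and at 1.15, 1.95 and 4.15 RPM under compound E, also below all P0 libraries, with log2 fold changes of -2.05 (SE 0.39, adjusted p = 0.00234) and -3.22 (SE 0.41, adjusted p = 0.000157).

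Adamts18 (chr8:113697126-113848738, minus strand) had 0 counts in 5 of the 6 P6 libraries and 0.218 RPM in DMSO replicate 3. In the P6 compound E group, 0 of 81298724 counts allows up to 0.0369 RPM (3 counts over the group). Against the pooled 4.04 RPM at P0, the level was at least 109.6-fold lower, a bound that covers counting error only, and the adjusted p was 0.000511. Under DMSO the log2 fold change was -4.28 (SE 0.91, adjusted p = 0.00613). Adamts7 (chr9:90163069-90208071, plus strand) encodes a protease that cuts COMP and was called under DMSO, where it was at 9.42, 11.7, 10.9 and 9.50 RPM at P0 and 4.05, 3.71 and 4.39 RPM at P6. These groups did not overlap, with a log2 fold change of -1.29 (SE 0.26, adjusted p = 0.00331). Under compound E it was at 10.7, 5.82, 10.8 and 8.33 RPM and 5.13, 6.13 and 4.12 RPM. Here the groups overlapped, with a log2 fold change of -0.65 (SE 0.26, adjusted p = 0.0851).

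Adamts3 and Timp3 were called between ages under compound E, with log2 fold changes of 1.53 (SE 0.33, adjusted p = 0.00519) and 1.28 (SE 0.28, adjusted p = 0.00522). Under DMSO these were 0.55 (SE 0.32, adjusted p = 0.243) and 0.29 (SE 0.28, adjusted p = 0.487). The P0 compound E libraries enter both this comparison and that with DMSO at P0, and the difference between treatments is the one tested above. Adamts15 was called under neither, with log2 fold changes of 1.43 (SE 0.53, adjusted p = 0.0659) under DMSO and -1.08 (SE 0.54, adjusted p = 0.17) under compound E. Among the most abundant members under DMSO, the log2 fold changes were 0.44 (SE 0.12, adjusted p = 0.0197) for Timp2, -0.07 (SE 0.17, adjusted p = 0.79) for Mmp14, 0.38 (SE 0.31, adjusted p = 0.403) for Mmp15 and 0.18 (SE 0.23, adjusted p = 0.609) for Adamts2.

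**Figure D4:**
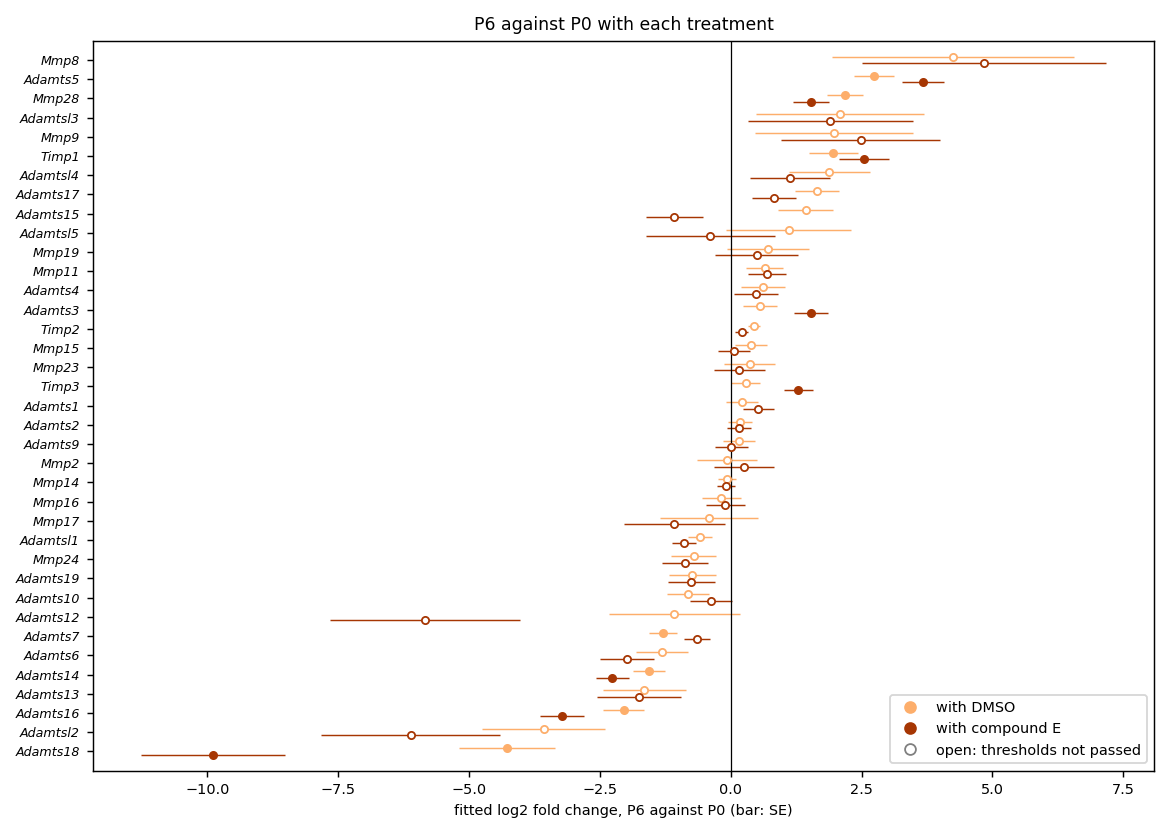
Fitted log2 fold change of P6 against P0 for the 37 members under DMSO and compound E, with the SE as bars and filled points for calls. Adamts5, Mmp28 and Timp1 lie to the right of 0 and Adamts14, Adamts16 and Adamts18 to the left under both treatments, and the fitted compound E values of Adamts18 and Adamtsl2 depend on the prior count of the fit because that P6 group is at 0.

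Both P6 libraries of replicate 3 stood apart from the other P6 libraries, and several MMP genes were higher there. Mmp8, the neutrophil collagenase, was at 29.8 RPM in the compound E library and 17.9 RPM in the DMSO library, and at 0 to 0.358 RPM in the other 4 P6 libraries. Mmp9, a gelatinase that neutrophils store, was at 50.7 and 30.8 RPM there and at 0 to 3.75 RPM in the others. Mmp2, the gelatinase of many mesenchymal cells, was at 71.9 and 77.1 RPM there and at 13.2 to 25.4 RPM in the others. In the P0 libraries Mmp2 was at 23.5 to 61.2 RPM. Mmp11 was at 76.4 and 69.3 RPM in the replicate 3 libraries and at 18.7 to 39.3 RPM in the other P6 libraries. None of these genes was called in any comparison in which it was tested.

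The 6 neutrophil markers summed to 181 and 124 RPM in these libraries and to at most 9.24 RPM in the other 12, with Elane at 0 in all P6 libraries and Mpo at 0 in all 14. The 8 macrophage and leukocyte markers summed to 113 and 46.8 RPM there and to at most 18 RPM elsewhere, and the 6 endothelial markers to 46.2 and 41.6 RPM there and to at most 13.2 RPM elsewhere. The mesenchyme markers summed to 3470.5 and 4172 RPM there and to 930.2 to 2488 RPM elsewhere, and the SC markers to 5507 and 7072 RPM, the lowest of each P6 group. The hair cell markers summed to 1304.6 and 1149.8 RPM there and to 468 to 661 RPM in the other P6 libraries. Of the 37 members, 13 were higher in both libraries than in all other P6 libraries, Timp3 and Adamts16 among them, and 2, Adamts15 and Mmp23, were lower, where 22% and 10.9% of all genes were. The part of other cell types in the members' values was not tested.

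**Figure D5:**
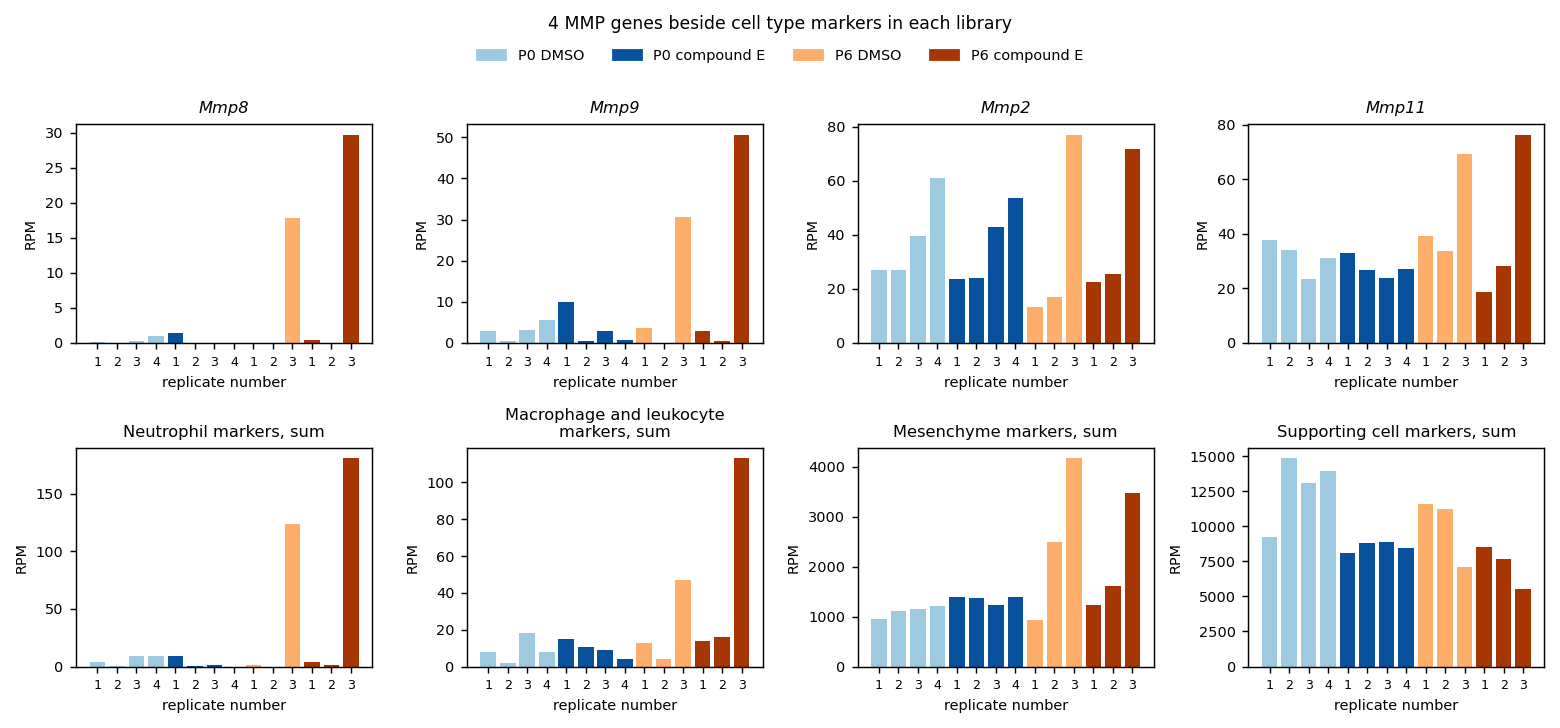
RPM of Mmp8, Mmp9, Mmp2 and Mmp11 and the summed RPM of marker lists in each library. Both P6 libraries of replicate 3 have the highest values for the 4 MMP genes, with 29.8 and 17.9 RPM for Mmp8.

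Without both replicate 3 libraries, 6 members were called between ages under DMSO and 5 under compound E. Under DMSO, Adamts5, Mmp28, Adamts7, Adamts16 and Adamts18 were still called, Adamts14 and Timp1 were not, and Adamts12 was. Under compound E, Adamts5, Timp1, Adamts14, Adamts16 and Adamts18 were still called, and Adamts3, Timp3 and Mmp28 were not. Single libraries also moved these counts by more than 1.5 times. Under DMSO there were 3 calls without P6 DMSO replicate 1, 3 without P6 DMSO replicate 2 (all higher, with none of the 4 lower calls left) and 4 without P0 DMSO replicate 2. Under compound E there were 5 without P0 compound E replicate 3, P0 compound E replicate 4 or P6 compound E replicate 2, and 4 without P6 compound E replicate 3. Adamts5 was called in each of these. Timp1 under DMSO was lost in 12 of the 15 settings that left out libraries and Adamts18 in 10. Under compound E, Mmp28 was lost in 8 of 15 such settings, and Adamts3 and Timp3 in 6 each.

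The other 23 members used were not called by edgeR in any comparison in which they were tested with all libraries. Among proteases of aggrecan and versican, Adamts1 had group means of 64.3 to 83.9 RPM, Adamts9 of 14.6 to 20.9 RPM and Adamts4 of 2.49 to 3.88 RPM. Adamts6 and Adamts10, linked to fibrillin microfibrils, had group means of 3.69 to 19 and 1.97 to 4.39 RPM, and Adamts17 had 10.9 to 33.3 RPM. Adamts12, which cuts COMP as Adamts7 does, had means of 0.998 and 1.03 RPM at P0 and was at 0 in 4 of the 6 P6 libraries. Adamts13, the protease of von Willebrand factor, had 0.476 to 1.92 RPM and Adamts19 had 35.7 to 70.4 RPM.

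Of the ADAMTS-like genes, which encode no protease domain, Adamtsl1 had group means of 36 to 75.5 RPM and Adamtsl2, Adamtsl3, Adamtsl4 and Adamtsl5 had at most 2.49 RPM. Adamtsl2 was at 0 in 5 of the 6 P6 libraries. Of the membrane-bound MMPs, Mmp16 had 12.9 to 18.8 RPM, Mmp24 had 12.8 to 25.4 RPM and Mmp17 had 0.684 to 1.57 RPM. Mmp23 had 2.89 to 3.50 RPM and Mmp19 had 0.540 to 0.916 RPM.

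The 14 genes that matched and were not used were Adamts8, Adamts20, Timp4 and 11 MMP genes. Mmp1a, Mmp1b, Mmp7, Mmp10 and Mmp13 had 0 counts in every library, and Mmp12, Mmp20, Mmp21, Mmp25 and Mmp27 had at most 24 counts in any. Mmp3, which encodes stromelysin-1, had 98 counts in P6 compound E replicate 3, 33 in P6 DMSO replicate 3 and at most 2 elsewhere. The cluster of 10 MMP genes at chr9:7272514-7699585 held 1 that was used, Mmp8.

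Other genes of the system were read from lists of inhibitors and clearance receptors, activating proteases, related metalloproteases and matrix substrates, 53 genes in all. The genes were chosen with earlier results of these data known, so the shares of all genes beside them cannot test for an excess. At P0, 42 of these were tested, of which 1 rose and 5 fell with compound E, where 0.238% and 0.985% of all genes did, and the median log2 fold change over the list was -0.37. Adam19, a sheddase of the ADAM family, rose from a mean of 1.75 to 7.59 RPM, with a log2 fold change of 2.06 (SE 0.33, adjusted p = 0.00797). Fbn1, the microfibril protein that several ADAMTS and ADAMTS-like proteins bind or cut, fell from 99.2 to 22.5 RPM, with a log2 fold change of -2.20 (SE 0.32, adjusted p = 0.00478). The log2 fold changes of the other genes that fell were -1.29 (SE 0.15, adjusted p = 0.00131) for Ece1, the endothelin-converting enzyme, -1.07 (SE 0.14, adjusted p = 0.00312) for Adam22, whose protein lacks protease activity, -1.17 (SE 0.17, adjusted p = 0.00526) for Pcsk6, a proprotein convertase, and -1.05 (SE 0.14, adjusted p = 0.00303) for Plat, the tissue plasminogen activator. With the replicate block, Thsd4, Adam23, Mme and Lama1 were called lower as well, which brought that count to 9, where 1.51% of all genes were called lower with the block.

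At P6 none of the 42 tested was called, and none of 47 in the difference between ages. Under DMSO 2 were higher and 6 lower at P6 than at P0, where 3.74% and 3.38% of all genes were. Under compound E 2 were higher and 1 was lower, where 3.54% and 2.89% were. Klk8, a secreted serine protease, had means of 2.29 RPM at P0 and 41.6 RPM at P6 under DMSO, with a log2 fold change of 4.23 (SE 0.47, adjusted p = 4.26e-05). Adam8, a metalloprotease with a disintegrin domain, had 11.4 and 83.2 RPM, with a log2 fold change of 2.94 (SE 0.29, adjusted p = 1.33e-05). Under DMSO the lower genes were Ece1 (-2.98 on the log2 scale), Fbn1 (-2.07), Col4a1 (-1.73), Adam22 (-1.69), Pcsk6 (-1.45) and Col4a2 (-1.35), where Col4a1 and Col4a2 encode basement membrane collagen. Of these, Ece1 was also called under compound E.

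Several regulators and substrates of the family were not called in any comparison in which they were tested. Adam10, the sheddase that makes the first cut in ligand-bound Notch, had group means of 448 to 694 RPM and a log2 fold change of 0.10 (SE 0.14, adjusted p = 0.857) with compound E at P0. For P6 against P0 under compound E its log2 fold change was 0.62 (SE 0.14, adjusted p = 0.00664), which missed the fold threshold only. Adam17, a related sheddase, had 122 to 135 RPM and Furin, which activates ADAMTS and membrane-type MMP precursors, had 211 to 301 RPM. Reck, a membrane-anchored MMP inhibitor, had 7.81 to 11.9 RPM and Lrp1, a receptor that clears proteases, had 46.5 to 76.6 RPM. Plau, the urokinase, had group means of at most 0.0728 RPM and was too low to be tested. The proteoglycan genes Acan and Vcan had 0.0410 to 2.19 and 0.991 to 2.63 RPM.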

How the data were processed

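RNA of sorted Lfng-EGFP+ cells was sequenced in 14 libraries, and the authors deposited whole-number counts per gene. Per the submitters' notes, reads were trimmed with Trim Galore 0.6.0 and cutadapt 1.15 and aligned with STAR 2.7.0f to GRCm38, while the study's methods name another STAR release. Which annotation release was counted, and whether by strand, is not given in the sources used here. Reads carried no molecular identifiers, so floors cover counting error only.

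Members and gene lists were chosen with earlier results of these data known. Values were given for every library for members called in any comparison, for the 4 highest per kb and for each TIMP. Library totals over genes were scaled to RPM, and exon lengths and gene spans were read from a GENCODE annotation of GRCm38. Counts were tested with edgeR 4.0.16 in R 4.3.3 (TMM, filterByExpr with a minimum count of 10, quasi-likelihood F test) and adjusted by Benjamini-Hochberg over all genes tested. Each age was fitted alone by treatment, and ages were compared in 1 fit of all 14 libraries. The scripts were tested on simulated data. Pair ratios used 0.5 added counts. Alternatives were DESeq2 1.42.0, DESeq2 size factors, no filter, a looser threshold, replicate and batch blocks, other sets of libraries, and each library or pair left out. The labels tie each replicate number to a batch (replicates 3 and 4 at P0 share one), and same-numbered libraries deviated together from their group means (r of 0.259 to 0.564 over 4 pairs at P0 and 0.424 to 0.742 over 3 pairs at P6). Numbers do not pair the ages.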

Additional observations from a re-analysis of the deposited data

Results flagged for a closer look

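For each of the 37 members, the values in the compound E and the DMSO group at P0 were examined, 74 sets of 4 libraries. In 6 sets a library lay far from the other 3, where a rate of 1 in 20 would give 3.7. The sets share libraries and some values are near 0, so that rate is only a rough guide. In the compound E group at P0, Mmp19 was at 0.258 RPM in replicate 2 (0.630 to 0.641 in the others), Adamts12 at 2.15 RPM in replicate 4 (0.496 to 0.721), Adamts13 at 2.70 RPM in replicate 1 (1.40 to 1.54), Mmp23 at 6.17 RPM in replicate 1 (2.52 to 2.68) and Mmp8 at 1.42 RPM in replicate 1 (0 in the others). In the DMSO group at P0, Adamts17 was at 4.16 RPM in replicate 1 (12.7 to 14.1 in the others).

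The response to compound E was taken as P6 minus P0 on the log2 scale, with the replicate pairs as a block. By edgeR it differed for Timp3 by 1.05 and for Adamts15 by -2.67 at an adjusted p of 0.05 or lower, and neither passed 0.01. Without the block, the adjusted p by edgeR was 0.923 for Timp3 and 0.632 for Adamts15. Adamts14 was higher with compound E in 4 of 4 pairs at P0 and lower in 3 of 3 pairs at P6. Its difference was -0.70 without the block (adjusted p = 0.99992 by edgeR) and -0.81 with it (adjusted p = 0.468 by edgeR), so the test of the difference passed in neither.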

How the results depend on the processing

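At P0, 5 members were called in place of 2 at an adjusted p of 0.05 or lower with no fold threshold, 5 with the replicate block at that threshold, and 1 in a joint fit of all 14 libraries. Over all genes, 195 were called at P0, against 443 by DESeq2, 350 with the replicate block and 1 to 225 with libraries left out. Between ages 1216 were called under DMSO and 1099 under compound E, against 1993 and 1854 by DESeq2. Leaving out libraries gave 0 to 2 calls at P0, 3 to 7 calls in place of 7 for P6 against P0 under DMSO, and 4 to 9 in place of 8 under compound E, and none at P6 or for the difference between ages. The 1 call at P0 without DMSO replicate 4 was Adamts16, higher with compound E, in place of Adamts15 and Adamts3. With the replicate block, 2 members passed 0.05 for the difference between ages, and the block changed no other call of a member. The DMSO libraries alone gave 4 calls between ages. Without both P6 libraries of replicate 3, 5 were called under compound E. The looser threshold with the block and the removal of both replicate 3 libraries were chosen after seeing the data. For 69 results on named members, 1453 alternative values were computed. Of these, 1359 stayed on the same side of the threshold and kept their direction or changed sign by less than the SE. Another 78 no longer passed and 11 newly passed. In 5 the sign changed by at least the SE without a call, and in 0 did it change where either value was called. Beyond the number of libraries left, the cause of these changes was not tested. At this depth, a group with 0 counts allows up to 0.0369 RPM in the P6 compound E libraries.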
